A study of Mus musculus with 17 samples.

Results

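The cytosolic ribosomal protein genes of the mouse were described here through acetylation of histone H3 at lysine 27 (H3K27ac) in the hypothalamus. The members were taken by symbol alone: protein-coding RefSeq genes named Rpl or Rps plus a number, or Rplp0 to Rplp2, without the ribosomal S6 kinases. This gave 90 of the 21887 protein-coding genes on the chromosomes of the peak list. Of the 90, 76 are the core genes of the ribosome, 46 of the large and 30 of the small subunit. The other members are 10 paralogs (Rpl3l, Rpl7l1, Rpl10l, Rpl22l1, Rpl32l, Rpl36al, Rpl37rt, Rpl39l, Rps27l and Rps27rt), 3 further copies that RefSeq types as coding (Rpl31-ps12, Rpl34-ps1 and Rps23rg1) and Rps19bp1, which encodes a protein that binds RPS19 and is no ribosomal subunit.

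The peaks came from 3 bulk CUT&Tag samples of mouse hypothalamus, titled as biological replicates, for which 1 shared peak list was used. In CUT&Tag an antibody brings a transposase to the mark, and the enzyme cuts and tags the DNA beside it. The sources used here do not give strain, sex, age or treatment, and the 7 DNA and 7 RNA sub-libraries of the single-cell Paired-Tag assay in the same series were not analysed here. The list holds 183678 peaks with a median fold enrichment of 3.18 and a median width of 557 bp. The fold is the value that the authors gave each peak, and it ranks peaks within this list only. With 1 list for all samples there is no spread between replicates, and a gene without a peak is only a gene with none in this list. Marker genes were read as a check of the labelled tissue, beside 69.2% of all protein-coding genes with a peak within 1 kb of an end. Such a peak was found for 11 of 12 hypothalamic markers (Pmch had none), 1 of 3 cortical genes (Neurod6, fold 5.06), 0 of 3 pituitary genes and 1 of 3 blood genes (Cd79a, fold 1.95). The hypothalamic folds ran from 2.56 (Oxt) and 2.67 (Avp), below the median of the list, to 14.8 (Pomc), so the check rests on few genes.

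Ribosomal proteins coat the ribosomal RNA of both subunits, and a cell needs them in nearly equal numbers, although their genes are scattered over the genome. Active promoters carry H3K27ac on the nucleosomes beside the transcript start. Most messages of this family begin with a terminal oligopyrimidine (TOP) tract, a C followed by further pyrimidines, through which the mTOR kinase controls their translation.

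The listed starts of several members are printed first, because the TOP tract is a feature of sequence that the choice by symbol did not use. Each line holds the last 60 bases before the RefSeq transcript start and the first 15 transcribed bases (GRCm38.p6, the assembly of mm10), on the strand of the gene. Capitals mark a run of pyrimidines counted downstream from a C within 5 bases of the start. Where several C fit, the nearest to the start was taken, and pyrimidines before it were not counted. Rps6 (chr4:86857353-86857427, minus strand) encodes the substrate of the S6 kinases, and its run of 9 is counted from the first transcribed base. Rps18 (chr17:33955651-33955725, minus strand) also has a run of 9 from that base, and Rpl15 (chr14:18270972-18271046, minus strand) has one of 13. The runs of Rpl13a (chr7:45128731-45128805, minus strand) and Rpl27a (chr7:109519135-109519209, plus strand) have 14 and 17 bases and go on beyond the printed stretch. Further pyrimidines, in lower case, stand directly before the capitals in Rps6, Rps18, Rpl15 and Rpl27a, so their unbroken runs are longer.
Rps6: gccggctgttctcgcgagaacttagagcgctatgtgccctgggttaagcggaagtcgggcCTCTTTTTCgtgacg
Rps18: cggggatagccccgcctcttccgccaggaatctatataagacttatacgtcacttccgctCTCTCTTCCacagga
Rpl15: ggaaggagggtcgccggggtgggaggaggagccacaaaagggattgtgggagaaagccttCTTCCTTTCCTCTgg
Rpl13a: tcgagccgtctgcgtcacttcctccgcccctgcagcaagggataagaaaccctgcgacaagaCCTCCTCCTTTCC
Rpl27a: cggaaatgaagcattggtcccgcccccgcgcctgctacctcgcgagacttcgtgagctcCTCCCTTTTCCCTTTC

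The starts of Rpl27 (chr11:101442185-101442259, plus strand) and Rps16 (chr7:28350629-28350703, plus strand) are shown because these genes had the highest folds of the family, and no such run lies at their listed starts.
Rpl27: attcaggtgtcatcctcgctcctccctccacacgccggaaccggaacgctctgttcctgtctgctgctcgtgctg
Rps16: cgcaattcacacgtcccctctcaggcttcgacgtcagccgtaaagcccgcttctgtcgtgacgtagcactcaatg

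Nearly every core gene carried H3K27ac at an end. A gene is called marked below when any peak overlaps the window of 1 kb before to 1 kb after an end of its RefSeq span. Of all protein-coding genes, 69.2% were marked by this rule. Of the 90 members, 81 were marked, or 90% (Wilson 95% interval 82.1% to 94.6%). Of the 76 core genes, 74 were marked, or 97.4% (90.9% to 99.3%): 45 of 46 large subunit genes (97.8%, 88.7% to 99.6%) and 29 of 30 small subunit genes (96.7%, 83.3% to 99.4%). The intervals cover counting error over genes only, and no test between lists was made.

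The 2 core genes without an end peak, Rps2 and Rpl17, both held a peak inside their span. Rps2 encodes a small subunit protein at the site where the message enters. Its listed start lies 1864 bp from the nearest end of its RefSeq span, and a peak of fold 6.68 covered that start. Rpl17 encodes a protein that lines the exit tunnel of the large subunit, and its inside peak had a fold of 15.1. Counting a peak at an end or anywhere in the span, 76 of 76 core genes and 83 of the 90 members had one, against 75.2% of all protein-coding genes.

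Many of these peaks reach other genes as well. The highest end peak was within 1 kb of the end of another annotated gene for 38 of 74 marked core genes (51.4%), against 36.6% of all marked coding genes. For 21 of the 38 the other genes included a protein-coding one (28.4% of the 74, against 24.4%). Once every peak in reach of another gene was left out, 47.8% of the members were marked, against 49.9% of all protein-coding genes, so the higher share of the members was not seen under that rule. Whether the shared peaks belong to the ribosomal protein gene or to its neighbour cannot be told apart, except by the position of the start, given below.

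**Figure D1:**
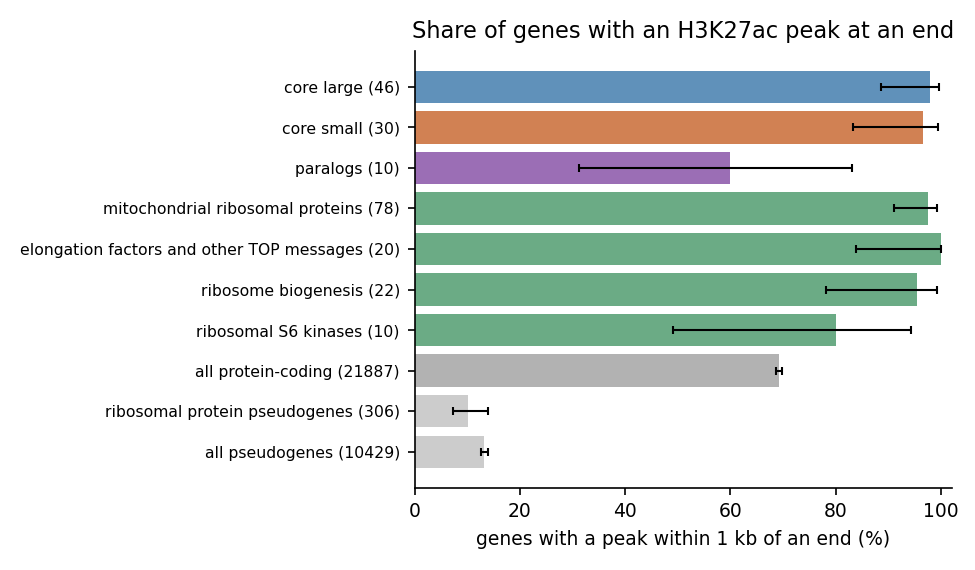
Share of genes with an H3K27ac peak within 1 kb of an end (x axis, percent), by gene list with the number of genes in brackets; whiskers are Wilson 95% intervals over genes. Core large and small subunit genes sit at 97.8% and 96.7%, above all protein-coding genes at 69.2%, and ribosomal protein pseudogenes sit at 10.1%.

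The folds at the ends of core genes were above those of marked genes in general, and they varied widely within the family. The median of the highest end fold was 11.2 over the 74 marked core genes (quartiles 8.25 and 13.0, SD 3.90), against 8.60 over all 15147 marked coding genes (quartiles 5.49 and 12.0, SD 4.28). Of the 74, 52 (70.3%) lay above 8.60, and 43 (58.1%) exceeded a fold of 10, against 38.7% of all marked genes. The core peaks were as wide as others, with a median of 1251 bp against 1246 bp. Across the 74 core genes fold and width were weakly and inversely related (Pearson's r = -0.23, Spearman's rho = -0.26), a description over genes that share 1 list.

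Large and small subunit genes had nearly the same folds. The median was 11.3 over 45 marked large subunit genes (95% interval of the median 8.89 to 12.5) and 11.1 over 29 small subunit genes (9.47 to 12.7). The intervals overlap over most of their length, and with the summit required in the window the order turned, with 11.11 for large and 11.14 for small subunit genes. Above the median of all marked genes lay 30 of the 45 large and 22 of the 29 small subunit genes. The end peaks of 13 of the 74 core genes (17.6%; 7 large and 6 small subunit genes) were in the top 1% of the list by fold, against 11.8% of all marked coding genes.

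**Figure D2:**
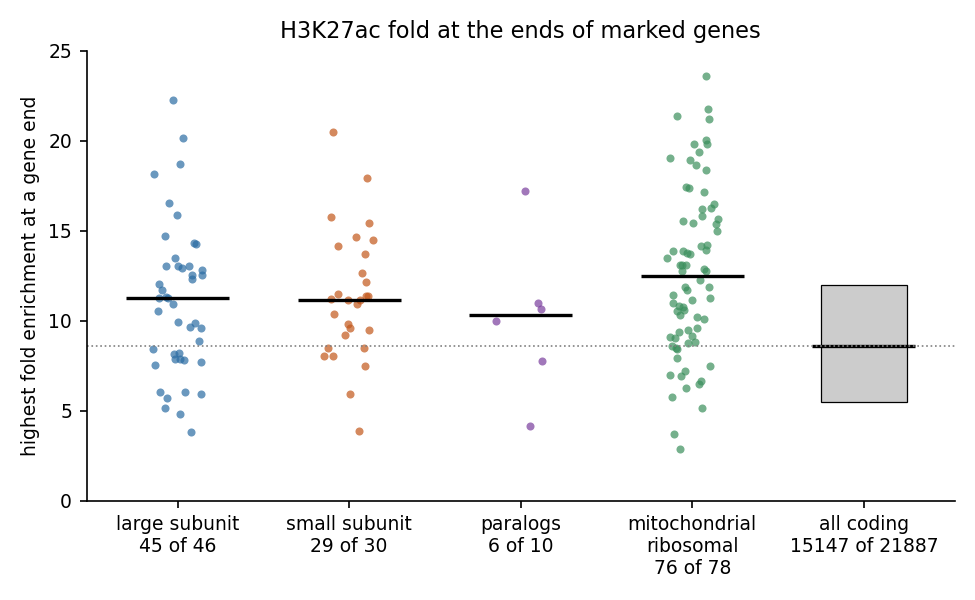
Highest fold enrichment at an end (y axis) for each marked gene of 4 lists, with black lines at the medians, beside the median and quartiles of all marked protein-coding genes (grey box; dotted line at 8.60); labels give marked genes of all genes in the list. The large and small subunit points overlap along nearly their whole range, from 3.84 to 22.3 and from 3.87 to 20.5.

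Rpl27, a large subunit protein gene at chr11:101442245-101445596, had the highest fold of the family, 22.3. Its peak ran from 261 bp before to 1050 bp after the listed start. Rps16, a small subunit gene at chr7:28350689-28352698, followed with 20.5. Rpl4, whose product reaches into the exit tunnel, had an end fold of 20.2, but that peak lay at its far end and in reach of Snapc5. At the start of Rpl4 the fold was 17.0, in a peak also in reach of Zwilch. Rpl21 (18.7), Rpl5 (18.2), Rps20 (17.9), Rpl22 (16.5), Rpl30 (15.9) and Rps13 (15.7) were the other core genes among the 10 highest members, with the paralog Rpl22l1 (17.2). The 10th and 11th members by fold, Rps13 and Rps23, stood at 15.7 and 15.4, so the order ends in no gap.

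At the low end, Rpl19 had 3.84, Rps15 3.87, Rpl35 4.79 and Rpl28 5.16, with the paralog Rpl37rt at 4.17. The value of Rpl19 came from a peak at an outer end of its span in reach of Cacnb1, and the peak at its listed start had 5.80. Rps15, which encodes a protein of the decoding region, had a single peak of 667 bp with its summit 20 bp after the start. These 4 core genes were therefore marked, but below the lower quartile of all marked genes at their ends. Their starts also had a peak in each case.

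Genes of one functional group did not share one fold. The stalk of the large subunit, which recruits the translational GTPases, is built on Rplp0 with Rplp1 and Rplp2 and sits beside Rpl12. Rplp1 had 14.7, Rplp0 12.9, Rplp2 9.90 and Rpl12 7.68, so the stalk genes spanned most of the middle of the family. Rplp0 had a second peak of 12.8 at its far end. Rpl5 (18.2) and Rpl11 (12.0), whose proteins travel together with a small ribosomal RNA and bind the p53 regulator Mdm2 when free, both lay above the core median.

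In the region of the peptidyl transferase centre and its early assembly, Rpl4 had 20.2 (at its far end), Rpl3 11.3, Rpl10 9.94 and Rpl8 6.04. Around the mouth of the exit tunnel, Rpl31 had 12.8, Rpl39 12.3, Rpl26 11.3, Rpl23a 5.68, Rpl35 4.79 and Rpl19 3.84, while Rpl17 had no end peak. At the message entry and decoding sites of the small subunit, Rps23 had 15.4, Rps3 10.4 and Rps15 3.87, while Rps2 had no end peak. Rps6 had 11.2, and Rps27a, which encodes a ribosomal protein fused to ubiquitin, 11.1. All 10 genes of a list of Diamond-Blackfan anaemia genes (a failure of red cell production in people with a mutated ribosomal protein gene) were marked, as were 97.4% of core genes. Their median fold of 10.5 (range 7.50 to 18.2) lay below the core median of 11.2. The list was written after the files were seen, and its median holds for these 10 genes only. The X-linked core genes Rps4x (13.7), Rpl36a (12.5), Rpl39 (12.3) and Rpl10 (9.94) lay within the range of the autosomal ones.

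Where the transcript start is listed, the peak lay on it. RefSeq starts and strands were at hand for 69 of the 90 members, 56 of them core. A peak lay within 1 kb of the start in 62 of the 69 members (89.9%) and in 56 of the 56 core genes, against 67.3% of all coding genes with a listed start. The peak covered the start base itself in all 56, against 91.1% of the start peaks of all genes. Its summit lay at a median of 11 bp before the start (quartiles -87 and 104 bp, downstream positive). It was within 200 bp of the start in 48 of 56 (85.7%), against 68.4% of the start peaks of all genes. The median was 39.5 bp after the start in the large and 23 bp before it in the small subunit genes, a difference smaller than the interquartile range of either group.

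The peaks reached a median of 537 bp upstream and 715 bp downstream of core starts. They reached farther downstream in 41 of 56 (73.2%), against 70.7% of all start peaks. Rpl41, which encodes the smallest ribosomal protein, had the most distant summit, 1615 bp after its start. Its span is 1059 bp, and its peak of 2183 bp was also in reach of Zc3h10. The summits of Rps25 and Rps19 lay farthest upstream, at -516 and -460 bp. Rps18 had a fold of 4.07 at its start and 8.02 in another peak at its far end, in reach of B3galt4 and Wdr46. Another peak at the far end was found for 9 of the 56, and it was the stronger one for 2, Rpl4 and Rps18.

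**Figure D3:**
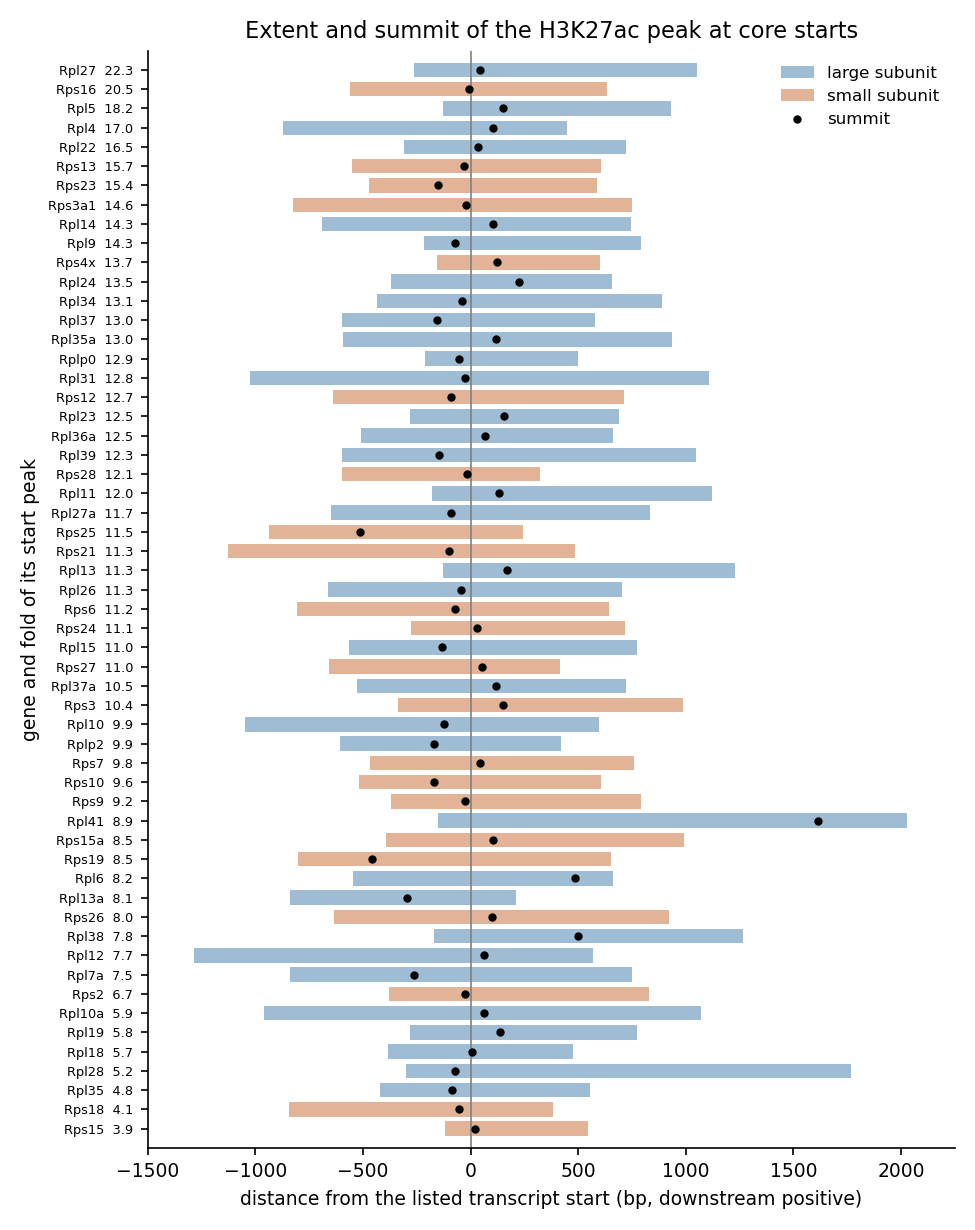
Extent (bars) and summit (black points) of the H3K27ac peak at the listed start of the 56 core genes with one, in bp from the start (x axis, downstream positive), ordered by the fold of the peak, which follows each symbol. All bars cross the start, 48 of 56 summits lie within 200 bp of it, and the summit of Rpl41 lies 1615 bp downstream.

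Some paralogs had a start peak with a fold near that of the parent gene, and others had no end peak. Of the 10 paralogs, 6 were marked (60%, 31.3% to 83.2%), against 69.2% of all coding genes. Rpl22l1, which can stand in for Rpl22 in the ribosome, had 17.2, in a peak also in reach of Gm32950, beside 16.5 for Rpl22. Rps27l, a target of p53, had 10.7 beside 11.0 for Rps27. Rpl7l1 had 11.0 at its start and 9.66 at its other end, beside 7.89 for Rpl7. Rpl36al had 9.96 in a peak also in reach of Mgat2, beside 12.5 for the X-linked Rpl36a. These 4 copies each had a peak at their own listed start. The highest end peaks of the parents Rpl22, Rps27, Rpl7, Rpl37, Rpl3 and Rpl32 were in reach of another gene as well. In that order the other genes were 9430083M05Rik, Rab13, Rdh10, Card6, Snord43 and Snora7a.

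The other marked paralogs, Rpl37rt and Rpl3l, had lower folds than their parents. Rpl37rt had 3.83 at its start, in reach of Acads, and 4.17 at its other end, beside 13.0 for Rpl37. Rpl3l, the striated muscle form of Rpl3, had no peak at its start. Its value of 7.76 came from the far end, in reach of Msrb1, beside 11.3 for Rpl3.

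No end peak was listed for Rpl10l, which replaces the X-linked Rpl10 in male germ cells, and the nearest peak lay 4597 bp away. Rpl39l, another copy best known from the testis, had its nearest peak 83573 bp away. The nearest peaks of Rpl32l and Rps27rt lay 1126 and 2873 bp away. Their parents had 9.94 (Rpl10), 12.3 (Rpl39), 9.62 (Rpl32) and 11.0 (Rps27). The copies Rpl31-ps12, Rpl34-ps1 and Rps23rg1 were also unmarked, with nearest peaks 8559, 4073 and 2451 bp away, beside parents at 12.8, 13.1 and 15.4. Rps19bp1 had 8.52. The sources used here do not say how reads that match several copies were placed, so values of near-identical copies are uncertain.

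**Figure D4:**
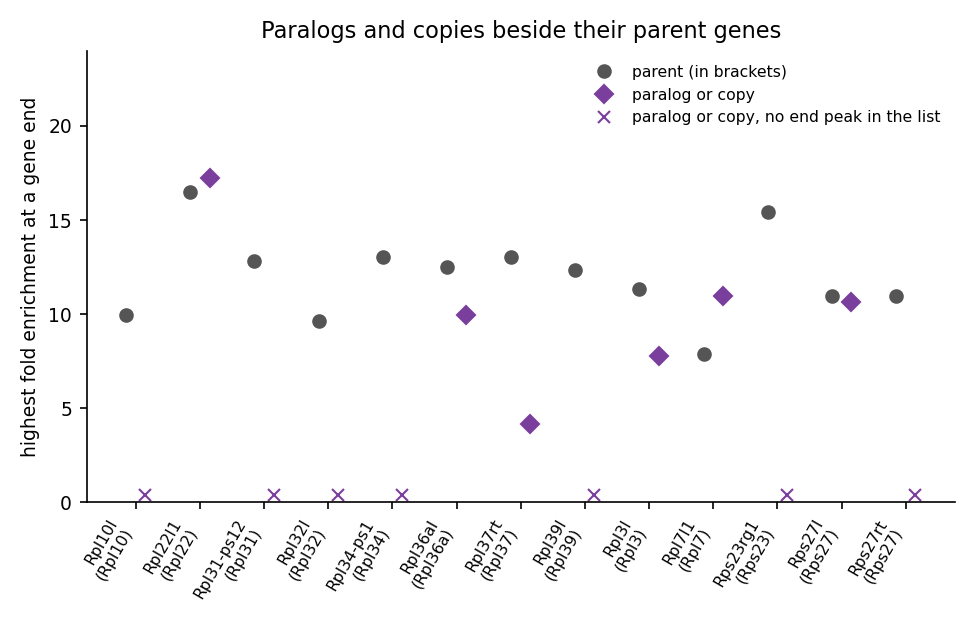
Highest fold enrichment at an end (y axis) for 13 paralogs and copies (purple) and their parent genes (grey), pair by pair; crosses near 0 mark copies with no end peak in the list. Rpl22l1 and Rps27l lie beside their parents, and 7 copies have no end peak while each parent has one.

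The starts of 4 copies and of Rps27 are printed to show where a copy and its parent share sequence and how starts with and without a peak read. Rps27rt (chr9:114982725-114982799, minus strand) and Rps27 (chr3:90213634-90213708, minus strand) have an identical run of 38 bases that begins at the first transcribed base of the copy and the second of the parent. Before the start their longest shared run has 10 bases. In the 8 other pairs with both promoters listed, the longest shared run over the 300-base window has 7 to 12 bases. Rpl22l1 (chr3:28805448-28805522, plus strand) has a peak, while Rpl39l (chr16:10170168-10170242, plus strand) and Rpl10l (chr12:66284387-66284461, minus strand) have none. Capitals again mark the pyrimidine run.
Rps27: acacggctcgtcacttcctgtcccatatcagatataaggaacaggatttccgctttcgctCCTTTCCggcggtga
Rps27rt: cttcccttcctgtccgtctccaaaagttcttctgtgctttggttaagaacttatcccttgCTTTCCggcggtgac
Rpl22l1: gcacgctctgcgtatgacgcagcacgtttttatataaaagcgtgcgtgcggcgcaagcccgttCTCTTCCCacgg
Rpl39l: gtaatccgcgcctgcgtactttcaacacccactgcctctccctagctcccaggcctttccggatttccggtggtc
Rpl10l: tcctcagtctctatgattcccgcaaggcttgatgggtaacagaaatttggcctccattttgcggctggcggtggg

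Pseudogenes named after ribosomal protein genes, mostly copies of spliced messages inserted elsewhere, were rarely marked. Of 306, 31 were marked (10.1%, 7.23% to 14.0%), against 13.3% of all pseudogenes. A peak overlapped the pseudogene itself in 5 of the 306 (1.63%), against 8.37% of all pseudogenes. The 306 had a shorter median span, 526.5 bp against 932 bp, and whether length bears on these shares was not tested. How reads that match several copies were placed is not given for these pseudogenes either. Of the 31 marked ones, 18 (58.1%) lay inside a protein-coding gene, against 54 of the 275 unmarked ones (19.6%). The highest fold among them was 11.5 at Rpl19-ps10, and the median was 3.86, below the lower quartile of the core genes.

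Pyrimidines were more frequent around the starts of core genes than around coding starts in general. C was the first transcribed base in 20 of 56 core genes (35.7%), against 13.7% of 17492 coding genes. A run of at least 5 pyrimidines lay over the start in 18 of 56 (32.1%, against 8.56%). A C followed by at least 4 pyrimidines began within 5 bases of the start in 26 of 56 (46.4%, 34.0% to 59.3%), against 18.7% of all coding genes and 21.7% of mitochondrial ribosomal protein genes. It was found in 15 of 34 large and 11 of 22 small subunit genes. Counted downstream from that C, the 26 runs had 5 to 17 bases with a median of 7.5. The count began at the first transcribed base in 12, and each of these has a pyrimidine before that base as well. A listed RefSeq start can differ from the start used in this tissue, so a missing run says only that these letters are not there.

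**Figure D5:**
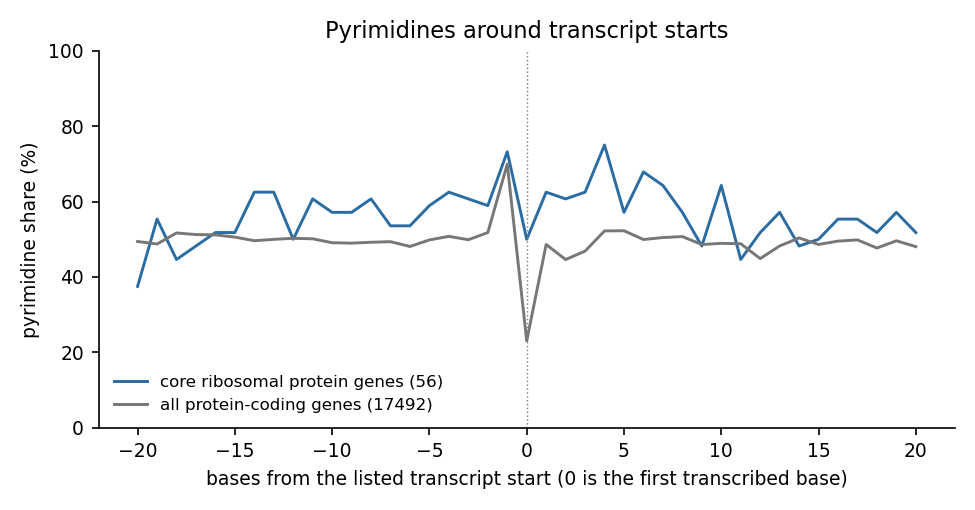
Share of promoters with C or T at each base (y axis, percent) from 20 bases before to 20 after the first transcribed base (0 on the x axis), for 56 core genes and 17492 protein-coding genes. At the first transcribed base the share is 50% in core genes and 23.1% in all genes, and it stays above that of all genes at the next 8 bases.

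Core genes with a tract did not have higher start folds. The median start fold was 9.42 over the 26 core genes with such a run (4.07 to 15.4) and 12.5 over the 30 without one (3.87 to 22.3), and the ranges overlap. Rpl15 and Rpl27a, with long runs, had 11.0 and 11.7, and Rpl13a 8.14, while Rpl27 and Rps16 had no run. These medians are a description, with no test.

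Of 6 motifs searched on both strands in the window of 250 bases before to 50 after the start, the ETS core CCGGAAG differed most from all promoters. It was in 22 of 56 core promoters (39.3%, 27.6% to 52.4%), against 11.9% of all promoters and 36.2% of mitochondrial ribosomal protein promoters. It was found in 13 of 34 large and 9 of 22 small subunit genes. The YY1 core AAGATGG was in 8 of 56 (14.3%, against 6.37%): Rpl7a, Rpl13a, Rpl35a, Rps7, Rps15a, Rps16, Rps26 and Rps27. In no core promoter did this motif overlap the ETS core. The SP box GGGCGG was in 33 (58.9%, against 46.3%), CCAAT in 17 (30.4%, against 39.0%) and TATAAA in 5 (8.93%, against 13.3%). The E box CACGTG, a site of Myc and its partners, was in 5 (8.93%, against 7.90%): Rpl13a, Rpl14, Rpl19, Rpl23 and Rpl34. Start folds with and without the ETS core had medians of 10.4 (22 genes) and 12.3 (34 genes).

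The last 150 bases before the starts of Rps21 (chr2:180257229-180257378, plus strand) and Rps6 (chr4:86857368-86857517, minus strand) show the ETS core in capitals, with 2 copies in Rps21. Their start folds were 11.3 and 11.2. A match of letters is no evidence of binding.
Rps21: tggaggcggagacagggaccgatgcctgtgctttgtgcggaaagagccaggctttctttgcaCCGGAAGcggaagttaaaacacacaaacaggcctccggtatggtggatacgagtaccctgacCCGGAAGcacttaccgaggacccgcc
Rps6: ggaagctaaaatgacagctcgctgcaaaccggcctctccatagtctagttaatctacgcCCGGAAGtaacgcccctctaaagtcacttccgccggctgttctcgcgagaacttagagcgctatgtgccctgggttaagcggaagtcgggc

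Core genes also shared features of structure. Their median span was 3169.5 bp, against 17169 bp for all coding genes. Peaks covered a median of 24.7% of the span, against 7.29%, and 68 of 76 (89.5%) had exactly 1 peak in the span, against 22.5%. The shares over all coding genes include genes with no peak in the span. Whether the shorter span bears on these values was not tested. A small nucleolar RNA (snoRNA) gene, whose product guides the modification of ribosomal RNA, lay inside 29 of 76 core genes (38.2%), against 1.70% of all coding genes. These hosts were 20 of 46 large and 9 of 30 small subunit genes, with 56 snoRNA genes in all and 5 of them in Rpl4. The median end fold was 11.3 over 27 marked hosts with snoRNA genes and 11.1 over 47 without.

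Several other lists of translation genes were also marked above the 69.2% of all coding genes. Among subunit genes that carry other symbols, Rpsa (13.1), Rack1 (9.31) and Fau (6.67) were marked. Of 20 elongation factor and other TOP message genes, 20 were marked, with a median fold of 11.2. Of 22 ribosome biogenesis genes, 21 were marked (all but Ubtf), with a median of 12.6. Mitochondrial ribosomal protein genes, which serve a separate ribosome, were marked in 76 of 78 cases (97.4%), nearly the same share as core genes, with a median of 12.5 (95% interval 10.7 to 13.9, against 9.84 to 12.0 for core genes). Of 10 ribosomal S6 kinase genes, 8 were marked (80%, 49.0% to 94.3%), an interval that includes the share of all coding genes, and Rps6ka2 and Rps6ka6 were not. Their median fold was 8.79, near the 8.60 of all marked genes.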

How the data were processed

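H3K27ac peaks of 3 bulk CUT&Tag samples of mouse hypothalamus, grouped by their titles, were analysed from 1 deposited narrowPeak list. Per the submitters' processing notes, the build was mm10 and the tools were cutadapt 4.5, BWA 0.7.17, UMI-tools 1.1.4, STAR 2.7.10a and MACS2 (version not given), listed with no roles. The sources used here do not give the caller's settings or how the samples were combined. For each peak the authors deposited a fold enrichment (a linear ratio), which was the main value. Of the −log10 columns that the authors deposited (p and q), q was the one used to filter peaks, in an alternative setting. Peaks were ranked by fold. The score deposited by the authors gave no value here, and the deposited summit offset, another unit, is in bp. The columns have no header and were read by their order in the format. The depth is unknown.

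Gene spans, listed starts and promoter windows came from RefSeq (GRCm38.p6). Promoters matched 69 of the 90 members by gene ID, and members without one are left out of counts on starts and motifs. A protein comparison of paralogs in the design was not run, as no protein table was used here. The caller of marked genes was tested on simulated peaks. Shares have Wilson 95% intervals and medians have binomial order-statistic intervals, over genes and for counting error only. No test was made, since no value per sample exists. Named genes are the 10 highest and 5 lowest marked members, every unmarked member, paralogs with parents, Rplp0 to Rplp2 and Rps19bp1, and others stand in the text as members of role lists. The members and lists were chosen with earlier results of these data known, and the role lists were written after the files were seen. The alternatives varied the window (500 and 2500 bp), the summit rule, the peak set, the end used and the promoter window. Python 3.11.15, numpy 2.4.6, pandas 2.3.3, scipy 1.17.1 and matplotlib 3.10.9 were used.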

Additional observations from a re-analysis of the deposited data

How the results depend on the processing

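Under the alternatives, 57 values moved by less than the interval or spread of the reported one and 20 moved by more. With peaks in reach of another gene left out, the marked share was 47.8% of members, 54.3% of large and 46.7% of small subunit genes and 30% of paralogs, against 49.9% of all protein-coding genes. Over core genes only, the share of members was 97.4%. Large and small subunit genes each reached 100% with a window of 2500 bp, against 73.6% of all protein-coding genes. They also did at listed starts only (34 large and 22 small subunit genes have one), against 67.3%. With a peak anywhere in the span counted as well, both again reached 100%, against 75.2%. That alternative was added after seeing the data. Ribosomal protein pseudogenes were marked in 6.21% with a window of 500 bp, 23.5% with 2500 bp and 6.86% with the summit in the window. The share was 6.21% with peaks above the median −log10 q and 3.27% with peaks whose fold reached the list's upper quartile (4.24). It was 1.63% with a peak on the span itself (added later), against 8.37% of all pseudogenes. For the other settings no share of all pseudogenes was computed, so none stands beside these values. In the last 100 bases before to 50 after the start, the SP box was in 44.6% of core promoters, against 38.8% of all promoters. CCAAT was in 19.6% (against 25.2%) and the E box in 3.57% (against 4.80%). The E box share of core promoters thus lay below that of all promoters there, and above it in the longer window. The causes of these moves were not tested. The median fold of the members stayed between 10.7 and 11.2 in all settings run. Of 34 named marked members, 29 kept exactly the same fold under all settings that still gave them a peak. The other 5 (Rpl4, Rpl19, Rpl22, Rpl37rt and Rplp0) took the value of another of their peaks in at least 1 setting.

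No paired analysis was possible because 1 list holds all 3 samples, with no value per replicate, and for the same reason no replicate was left out in turn. Depth per sample is unknown. The RefSeq promoter table lacks 20 core genes.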

Other observations

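The 76 core genes lie on 19 chromosomes, with 14 of them on chromosome 7. No share of all coding genes by chromosome stands beside this count, so it shows no excess there. Rps2 and the muscle paralog Rpl3l, on chromosome 17, lie 5899 bp apart. Rps2 had its peak of 6.68 inside the span, and Rpl3l had none at its start.

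Among core genes marked at an end, 56 had peaks at 1 end and 18 at both. In 6 of the 18 the same peak reached both ends. No share over all coding genes stands beside these counts, and core spans are short. More than 1 end peak was found for 15 of the 74 marked core genes, against 5592 of the 15147 marked coding genes.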
